A study of Homo sapiens with 24 samples.

Results

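The genes described here are 10 members of the contractile apparatus of smooth muscle cells and myofibroblasts: ACTA2, ACTG2, MYLK, CNN1, TAGLN, MYL9, TPM1, TPM2, CALD1 and LMOD1. They were chosen by name, with earlier results of these data known. Each was found among the 25029 genes that the probe annotation names by a single symbol. Together they hold 135 of the 352859 probe sets of the array. Every member passed the filter on dim genes, as did 17329 genes in all, and 125 of the 135 member probe sets passed the same filter.

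The study used 2 human cell lines that carry an inducible YWHAE-NUTM2 fusion gene with an HA tag, the fusion found in clear cell sarcoma of the kidney. BJ-hTERT cells are foreskin fibroblasts immortalised with telomerase, and HEK293 cells are a line of embryonic kidney origin. In each line, cells treated with doxycycline to induce the fusion and mock-treated cells, which received water in place of the drug, were sampled at 24 h and at 72 h, giving 8 groups of 3 arrays. All groups carry the fusion construct, and cells without it that received doxycycline were not analysed here, so an effect of the drug and an effect of the fusion cannot be told apart. The labels give neither the dose, nor whether a line is a single clone, nor whether the arrays of a group came from separate cultures, and the p-values therefore cover only the variation among these samples, which may be technical.

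As a check of the labels, NUTM2B, a member of the NUTM2 family, rose with doxycycline in all 4 comparisons (limma, adjusted p under 0.05), by 1.90 and 1.95 log2 units in BJ-hTERT cells at 24 h and 72 h and by 2.16 and 2.33 in HEK293 cells. Over probe sets, Pearson's r was 0.974 to 0.98 between arrays of a group, 0.956 to 0.977 between groups of the same line, and 0.775 to 0.8 between the lines. For all 10 fibroblast markers listed, mock BJ-hTERT arrays lay above mock HEK293 arrays at 24 h, as for 24.5% of all genes. In mock HEK293 cells at 24 h 4 of the 10 were under the filter value on dim genes, so the count is a description. Averages over the 6 endothelial and the 4 immune markers on the array stayed at or below 3.02 log2 in every array. In BJ-hTERT groups 4 to 5 of the 6 and 4 of the 4 were under the filter value of 2.83. In mock HEK293 cells at 24 h all 6 endothelial markers lay under the filter value, so their differences between the lines are given as a description. Of the 3 endothelial markers tested, 2 had mock BJ-hTERT arrays all above the mock HEK293 arrays at 24 h, as for 24.5% of all genes. The highest of these differences was 3.80. The 6 epithelial and keratinocyte markers averaged 5.26 to 5.71 in HEK293 arrays and 3.07 to 3.64 in BJ-hTERT arrays.

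In smooth muscle cells and myofibroblasts, force is made by myosin pulling on bundles of actin. Calcium acts through calmodulin on myosin light chain kinase, which phosphorylates the regulatory light chain and so switches myosin on, while tropomyosin, caldesmon and calponin lie along the actin filament and tune that contact. The genes are classic targets of serum response factor (SRF), which binds a DNA element called the CArG box and works with cofactors of the myocardin family. Fibroblasts that turn into myofibroblasts, as in wounds and tumour stroma, take up alpha smooth muscle actin, the product of ACTA2.

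RefSeq promoter windows of GRCh38.p14, each from 250 bases before to 50 bases after a gene's start, were at hand for 8 of the 10 members, TAGLN and MYL9 being the others, with 13 windows in all. The windows below belong to the 3 members that changed with doxycycline in fibroblasts (ACTA2, MYLK and LMOD1) and to the second smooth muscle actin gene, ACTG2. Capitals mark the CArG box, searched as CC, 6 bases that are A or T, and GG, and in ACTA2 with 1 C or G allowed among the 6. The search pattern is the same on both strands, although the letters of a single box need not be, and the boxes found did not overlap.
ACTA2: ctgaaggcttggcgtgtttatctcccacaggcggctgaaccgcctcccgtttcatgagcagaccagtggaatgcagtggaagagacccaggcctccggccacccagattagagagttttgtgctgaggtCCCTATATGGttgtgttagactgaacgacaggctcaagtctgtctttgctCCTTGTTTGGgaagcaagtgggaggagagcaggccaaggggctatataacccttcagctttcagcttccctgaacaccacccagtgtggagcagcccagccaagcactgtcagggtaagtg
ACTG2: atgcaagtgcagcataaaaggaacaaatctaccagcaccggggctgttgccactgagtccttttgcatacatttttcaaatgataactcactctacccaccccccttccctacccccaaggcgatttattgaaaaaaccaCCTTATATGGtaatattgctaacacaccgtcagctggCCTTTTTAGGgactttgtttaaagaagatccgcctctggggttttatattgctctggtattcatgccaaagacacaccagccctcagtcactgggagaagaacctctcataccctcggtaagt
MYLK: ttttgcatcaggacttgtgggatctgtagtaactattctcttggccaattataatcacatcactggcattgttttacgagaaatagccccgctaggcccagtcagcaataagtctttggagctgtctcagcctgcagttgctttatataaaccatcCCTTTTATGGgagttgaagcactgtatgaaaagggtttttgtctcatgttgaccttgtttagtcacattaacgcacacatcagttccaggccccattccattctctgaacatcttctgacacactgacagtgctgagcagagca
LMOD1: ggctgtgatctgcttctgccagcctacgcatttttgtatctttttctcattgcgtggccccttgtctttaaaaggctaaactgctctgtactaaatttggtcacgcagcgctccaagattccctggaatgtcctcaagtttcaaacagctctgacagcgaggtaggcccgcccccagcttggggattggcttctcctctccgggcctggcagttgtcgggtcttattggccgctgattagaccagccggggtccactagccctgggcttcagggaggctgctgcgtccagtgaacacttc
The ACTA2 window is chr10:88952724-88953023 on the minus strand, the ACTG2 window chr2:73892758-73893057 on the plus strand, the MYLK window chr3:123620499-123620798 on the minus strand and the LMOD1 window chr1:201946499-201946798 on the minus strand. The strict pattern was present in ACTG2, with boxes that start 110 and 73 bases before the gene's start. It was also in MYLK, 94 bases before an internal start, and in 1.29% of the 35116 windows of the same length in the table. That MYLK start lies 96.2% of the way along the gene from its outermost start, and the start of the ACTA2 window 68.5% along. No window at the outermost MYLK start was at hand, so the promoter of transcripts that begin there was not examined. With 1 C or G allowed, the ACTA2 window shown had boxes 121 and 71 bases before its start and CALD1 had a box 26 bases before, against 8.13% of all windows. The other ACTA2 window, at the outermost start, had none. No such box was in the LMOD1 window, which says only that these letters are not in it.

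The contractile genes were higher in the fibroblast line. In mock cells at 24 h, BJ-hTERT exceeded HEK293 by 0.91 (ACTA2) to 6.77 (MYL9) log2 units, and the 3 BJ-hTERT arrays lay above the 3 HEK293 arrays for each gene, as for 24.5% of all genes. ACTG2 passed the filter on dim genes only through the BJ-hTERT groups, where it was high, so its difference is given as a description. The differences of the other 9 genes passed the threshold used throughout, an adjusted p under 0.05 from limma's moderated test with Benjamini-Hochberg adjustment over the 17329 genes, where 50.7% of genes were called and 21.8% were called higher in BJ-hTERT. Among the smallest differences, ACTA2 averaged 4.91 ± 0.39 in BJ-hTERT and 4.00 ± 0.21 in HEK293 (log2 values, SD, n = 3 each), and by the median of its probe sets the difference did not pass the test (adjusted p = 0.23). ACTG2 averaged 5.47 ± 0.06 in BJ-hTERT and 1.96 ± 0.18 in HEK293 cells. The ACTG2 mean lay under the filter value of 2.83 in all HEK293 groups and the TAGLN mean in 3 of the 4, so the size of these 2 differences is uncertain. In bulk samples, fewer cells of a type and less RNA per cell cannot be told apart.

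**Figure D1:**
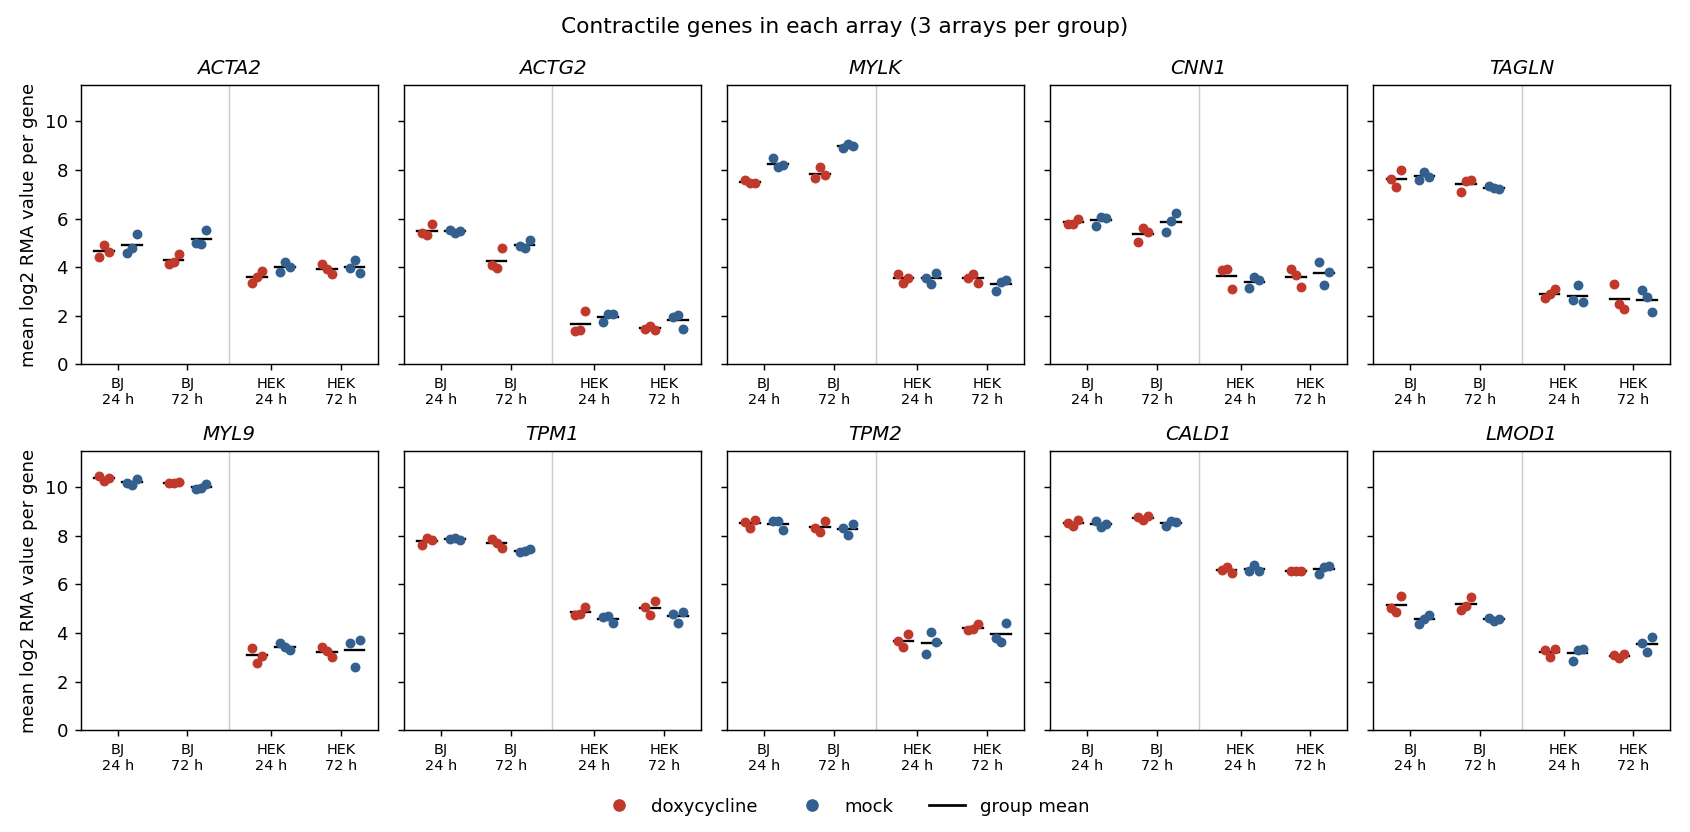
Mean log2 RMA value (y axis) of each contractile gene in every array, by line and time (x axis), with doxycycline groups left of mock groups. Points are arrays and black lines are means of 3 arrays. BJ-hTERT arrays lie above HEK293 arrays for every gene in mock cells at 24 h, and the doxycycline arrays lie below the mock arrays for MYLK in BJ-hTERT cells at both times.

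In doxycycline-treated BJ-hTERT fibroblasts, the message for myosin light chain kinase fell at both times and that for alpha smooth muscle actin fell at 72 h, when that for leiomodin 1 rose. At 24 h, 1 of the 10 members was called, against 8.85% of all genes tested. At 72 h 3 were called, against 8.62%: 2 members fell and 1 rose, against 4.59% and 4.03% of all genes, and 7 did not pass the test. The median change of the 10 members at 72 h was 0.11 log2 units, with -0.01 over all genes tested, and 4 members lay below 0 and 6 above.

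MYLK, the kinase that switches on smooth muscle myosin, had the largest change of the 10. At 24 h its values were 7.59, 7.46 and 7.47 in doxycycline cells, against 8.47, 8.13 and 8.18 in mock cells. At 72 h they were 7.66, 8.11 and 7.79 in doxycycline cells, against 8.90, 9.05 and 8.98 in mock cells. Doxycycline arrays lay below mock arrays without overlap at both times, as for 11.3% of all genes at 24 h and 12.9% at 72 h. The change was -0.75 ± 0.15 log2 units (SE) at 24 h with an adjusted p of 0.0028, and -1.13 ± 0.15 at 72 h with an adjusted p of 6.6e-05. By the median of its probe sets the 24 h change was -0.81 and lost the call (adjusted p = 0.083). The change at 72 h minus that at 24 h was -0.37 ± 0.22, with an adjusted p of 0.65.

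ACTA2, alpha smooth muscle actin, had values of 4.14, 4.23 and 4.56 in doxycycline cells at 72 h, against 5.00, 4.94 and 5.52 in mock cells. The lowest mock array was above the highest doxycycline array. The change was -0.84 ± 0.21 log2 units, with an adjusted p of 0.013. At 24 h the values were 4.42, 4.90 and 4.62 in doxycycline cells, against 4.60, 4.79 and 5.35 in mock cells, and the groups overlapped (change -0.27 ± 0.21, adjusted p = 0.52). The call at 72 h rests on single arrays: without mock replicate 3 the change was -0.66 with an adjusted p of 0.087, and without doxycycline replicate 1 it was -0.76 with an adjusted p of 0.061. In a fit on the 6 arrays of these groups alone the adjusted p was 0.069. The other 16 of 19 alternative settings kept the call, and over all 19 the change ran from -1.92, by the median of probe sets, to -0.66.

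LMOD1 encodes leiomodin 1, which nucleates actin filaments in smooth muscle. Its values at 72 h were 4.94, 5.12 and 5.47 in doxycycline cells, against 4.63, 4.48 and 4.56 in mock cells. At 24 h they were 5.03, 4.86 and 5.52 in doxycycline cells, against 4.38, 4.60 and 4.75 in mock cells. The groups did not overlap at either time, and doxycycline cells were the higher, as for 14.4% of all genes at 24 h and 12.2% at 72 h. The change was 0.62 ± 0.19 log2 units at 72 h with an adjusted p of 0.044, and 0.56 ± 0.19 at 24 h with an adjusted p of 0.069. The 72 h call was lost in 11 of 19 alternative settings, among them all 3 that left out a mock array and those that left out doxycycline replicate 2 (adjusted p = 0.078) or replicate 3 (adjusted p = 0.20), so it lies at the edge of the threshold. Over the 19 settings the change ran from 0.47 to 1.04, the highest by the median of probe sets.

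The other 7 members did not pass the test in BJ-hTERT cells at either time. ACTG2, the enteric smooth muscle actin, had values of 4.09, 3.94 and 4.77 in doxycycline cells at 72 h, against 4.88, 4.77 and 5.10 in mock cells. The highest doxycycline array reached the level of the lowest mock array, and the change of -0.65 ± 0.22 had an adjusted p of 0.073. Of the alternative settings 3 called ACTG2 and the others did not. Over its brighter probe sets the change was -1.36 with an adjusted p of 0.0011, and with a stricter filter on dim genes the adjusted p was 0.046. Without doxycycline replicate 3, the array that reached the mock level, the change was -0.90 with an adjusted p of 0.014. CNN1, the actin-binding protein calponin 1, changed by -0.49 ± 0.26 at 72 h with an adjusted p of 0.29. The change at 72 h was 0.31 ± 0.15 for TPM1 and 0.08 ± 0.22 for TPM2, which encode tropomyosins. It was 0.21 ± 0.12 for CALD1 (caldesmon), 0.17 ± 0.21 for MYL9 (the regulatory light chain that MYLK phosphorylates) and 0.14 ± 0.26 for TAGLN (transgelin), and adjusted p-values of these 5 ran from 0.25 to 0.88. At 72 h doxycycline arrays all lay above mock arrays for 4 members (MYL9, TPM1, CALD1 and LMOD1) and all below for 2 (ACTA2 and MYLK), against 12.2% and 12.9% of all genes.

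**Figure D2:**
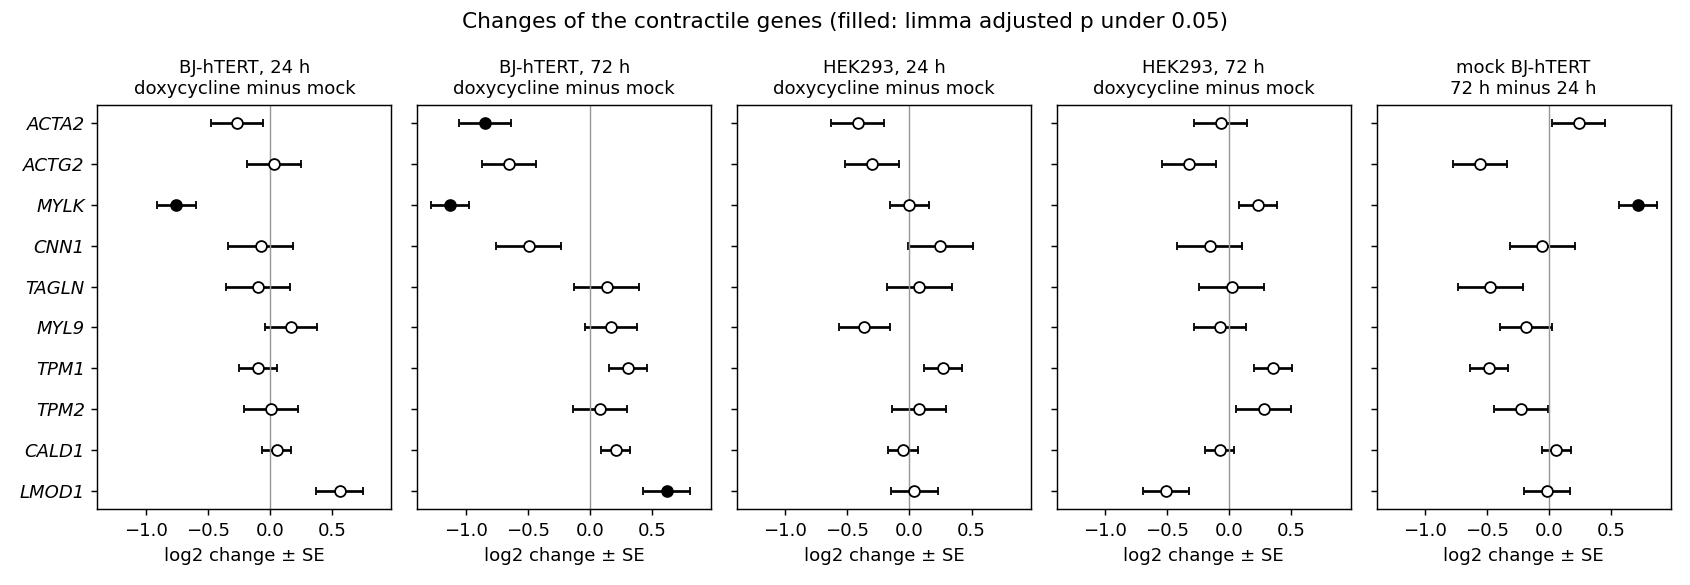
Log2 change with its SE (x axis) of each contractile gene (rows) in 5 comparisons; filled points have a limma adjusted p under 0.05. In BJ-hTERT cells MYLK fell at both times (-0.75 and -1.13), ACTA2 fell (-0.84) and LMOD1 rose (0.62) at 72 h, MYLK was higher at 72 h than at 24 h in mock cells (0.72), and no point is filled in HEK293 cells.

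In HEK293 cells no member was called with doxycycline at 24 h, where limma called 0.473% of all genes, or at 72 h, where it called 1.21%. At an unadjusted p under 0.05 the counts were 0 and 2 of 10, against 8.56% and 11.6% of all genes. Those at 72 h were LMOD1 and TPM1. LMOD1 had values of 3.08, 2.96 and 3.12 in doxycycline cells at 72 h, against 3.61, 3.24 and 3.85 in mock cells. The groups did not overlap, with doxycycline the lower, as for 8.48% of all genes, and the change was -0.51 ± 0.19 with an adjusted p of 0.27. TPM1 had values of 5.07, 4.76 and 5.31 in doxycycline cells, against 4.80, 4.41 and 4.87 in mock cells, which overlapped. Its change was 0.35 ± 0.15, with an adjusted p of 0.36. MYLK had values of 3.57, 3.70 and 3.34 in doxycycline cells at 72 h, against 3.03, 3.40 and 3.48 in mock cells, and changed by 0.23 ± 0.15 (adjusted p = 0.62). The mock mean of 3.30 was near the filter value in HEK293 cells.

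The doxycycline effect was then compared between the lines with an interaction term. At 72 h, 2 of 10 members differed, against 5.27% of all genes. For MYLK the BJ-hTERT effect minus the HEK293 effect was -1.36 ± 0.22 (adjusted p = 0.00096), and for LMOD1 it was 1.13 ± 0.27 (adjusted p = 0.014). HEK293 levels of both genes lay near the filter value at 72 h, with means of 3.54 and 3.05 in doxycycline cells and 3.30 and 3.56 in mock cells for MYLK and LMOD1. For ACTA2 the difference at 72 h was -0.78 ± 0.30, with an adjusted p of 0.15. At 24 h no member passed the test, against 4.74% of all genes. MYLK came closest, with a difference of -0.75 ± 0.22 and an adjusted p of 0.053. The effect at 72 h minus that at 24 h was called for no member in BJ-hTERT (0.00577% of all genes) or HEK293 cells (0.0173%).

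Mock fibroblasts also changed with time in culture. This comparison shares the mock 72 h arrays with the doxycycline comparison at 72 h, and the mock 24 h arrays with that at 24 h. MYLK was the only member called, against 1.85% of all genes. Its values were 8.90, 9.05 and 8.98 at 72 h, against 8.47, 8.13 and 8.18 at 24 h, with no overlap, as for 10.3% of all genes. The change was 0.72 ± 0.15, with an adjusted p of 0.020. It lost the call without any of 5 of the 6 arrays, with changes of 0.65 to 0.75 and adjusted p-values of 0.053 to 0.099, and kept it without mock 24 h replicate 1. TPM1 was at 7.34, 7.37 and 7.46 at 72 h, against 7.88, 7.91 and 7.83 at 24 h, without overlap, and its change of -0.49 ± 0.15 had an adjusted p of 0.12. ACTG2 and TAGLN likewise had 72 h arrays all below 24 h arrays, as for 9.1% of all genes, with changes of -0.55 ± 0.22 (adjusted p = 0.23) and -0.47 ± 0.26 (adjusted p = 0.43). In mock HEK293 cells no member was called over the same time, against 0.369% of all genes.

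Each gene value is a mean over probe sets that read different stretches of the transcript, and these were examined singly. No member probe set passed the test over all 268605 probe sets in any of the 4 doxycycline comparisons or in mock fibroblasts over time, although 4, 17, 21, 15 and 8 of 125 had an unadjusted p under 0.05. Over all probe sets this held for 11.1% and 11% with doxycycline in BJ-hTERT cells at 24 h and 72 h, 6.84% and 7.11% in HEK293 cells, and 7.93% over time in mock fibroblasts. limma called 1.15% and 0.688% of all probe sets with doxycycline in BJ-hTERT cells at 24 h and 72 h, 0.051% and 0.0741% in HEK293 cells, and 0.0309% over time in mock fibroblasts. The 23 MYLK probe sets mostly shared a direction. Singly, 2 and 6 of them had an unadjusted p under 0.05 with doxycycline in BJ-hTERT cells at 24 h and 72 h. In mock fibroblasts over time 3 did, beside the shares of all probe sets given above. With doxycycline in BJ-hTERT cells all 23 were below 0 at 72 h, with 18 whose doxycycline arrays all lay below the mock arrays (8.91% of all probe sets), and 22 were below 0 at 24 h, with 14 apart in this way (8.19%). In mock cells over time 22 of the 23 were above 0, and for 17 all 72 h arrays lay above the 24 h arrays (7.38%). With doxycycline the MYLK probe sets changed by -2.54 to 0.06 at 24 h, and by -1.87 to -0.20 at 72 h with a median of -1.09. Probe set 16958302 had the largest fall at 24 h (-2.54) and the smallest at 72 h (-0.20). In mock cells over time it changed by -1.79.

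ACTA2 had 7 tested probe sets, all below 0 at 72 h, and their changes spread from -3.01 to -0.10. The probe set with the largest fall averaged 3.08 in doxycycline cells, against 6.09 in mock cells. The probe set with the smallest averaged 6.59 in doxycycline cells, against 6.69 in mock cells. Whether a gene's probe sets changed unequally was tested with limma's diffSplice. It called 1.56%, 1.82% and 1.51% of genes with doxycycline in BJ-hTERT cells at 24 h and 72 h and over time in mock cells. No member was called in any of them. On simulated data diffSplice made many false calls, so a heterogeneity test that gives each probe set its own moderated variance, which made few, was run beside it. It called 0.662%, 0.894% and 0.481% of genes and again no member. For ACTA2 at 72 h the adjusted p was 0.092 by diffSplice and 0.22 by the heterogeneity test. A weighted form of diffSplice that also made many false calls gave 0.045, and diffSplice without a filter gave 0.0038, so the spread among ACTA2 probe sets is given as values and not as a call.

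LMOD1 had 8 of 11 tested probe sets above 0 at 72 h, with changes from -0.58 to 2.19. Some LMOD1 and TPM1 probe sets, 3 of each gene, carry IDs far from those of the gene's other probe sets. The 2 such LMOD1 probe sets that were tested changed by -0.38 and 0.28 at 72 h, and the other 9 had a median of 0.77. All 10 CNN1 probe sets were below 0 at 72 h (-1.17 to -0.04) and all 4 MYL9 probe sets above (0.15 to 0.21), although neither gene passed the test. CALD1 had 18 of 22 above 0, TPM1 16 of 20, TPM2 8 of 10 and TAGLN 9 of 13, and ACTG2 had 4 of 5 below 0. Between the lines in mock cells at 24 h, diffSplice called unequal probe set differences for 9 of the 10 members (23.4% of all genes). The heterogeneity test called the same 9 (23.5%), the exception being LMOD1. ACTG2 is counted as a description, since it passed the filter only through the BJ-hTERT groups. In mock HEK293 cells ACTG2 and TAGLN lay at or under the filter value, and CNN1, MYL9, MYLK and TPM2 averaged 3.39 to 3.61. ACTA2, TPM1 and CALD1, which were also called, averaged 4.00, 4.59 and 6.64 there. Probe sets of unlike brightness can differ unequally when one line is near the filter value. The part of this in the calls was not tested, and the count is not read as a difference in transcripts.

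**Figure D3:**
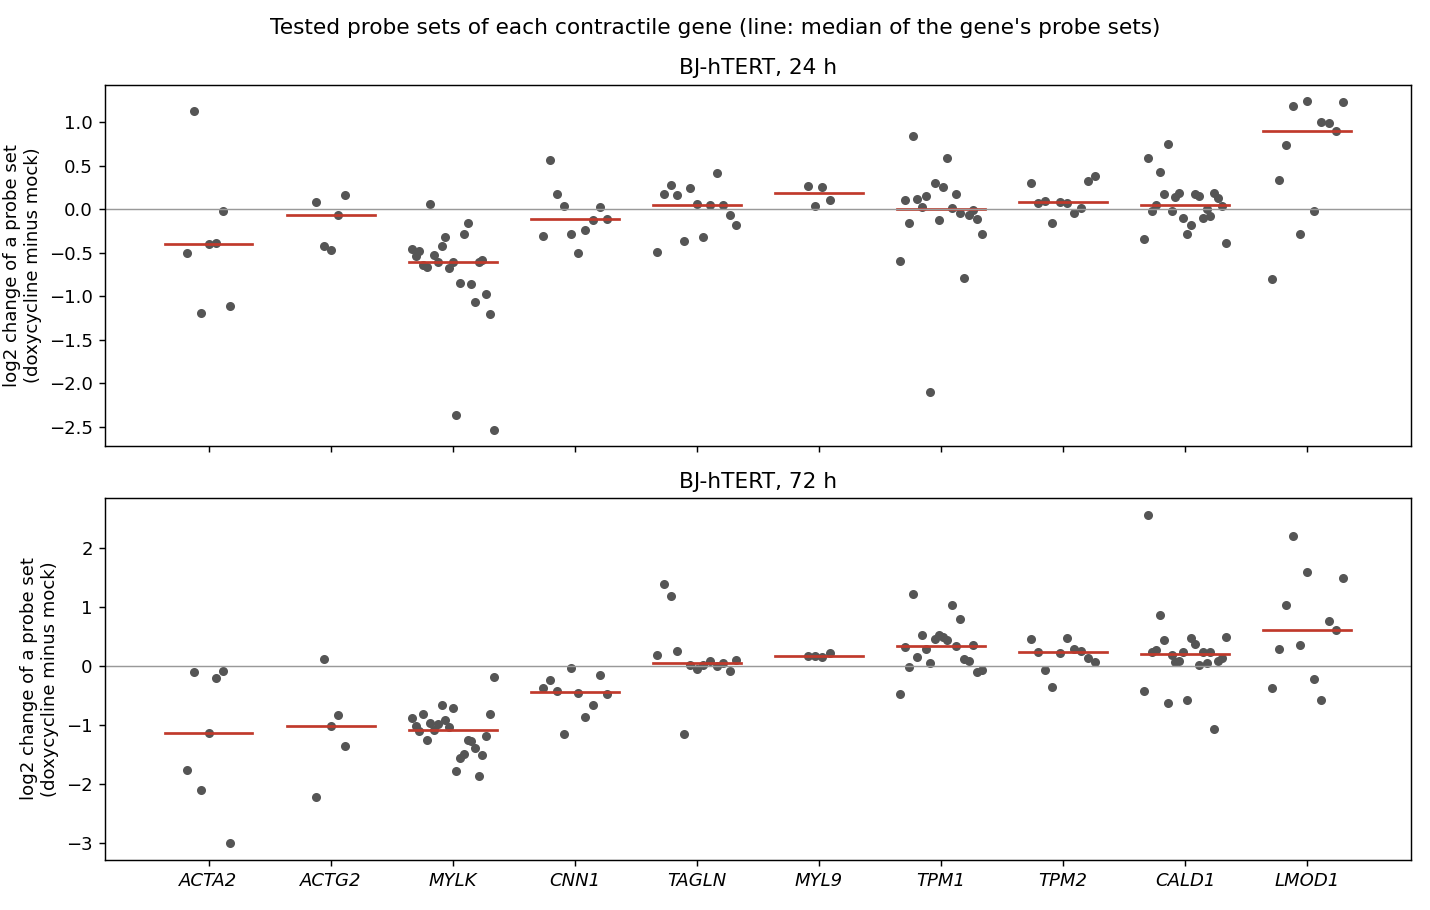
Log2 change of every tested probe set (y axis; doxycycline minus mock, BJ-hTERT cells) of each contractile gene (x axis) at 24 h (top) and 72 h (bottom); red lines are medians and points are in order of probe set ID. All 23 MYLK probe sets lie below 0 at 72 h, and those of ACTA2 spread from -3.01 to -0.10.

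Lists of genes around the contractile apparatus were counted in BJ-hTERT cells at 72 h, where 4.03% of all genes rose and 4.59% fell with doxycycline. Of the actin, myosin, tropomyosin, calponin and leiomodin paralogs, 2 of 16 tested rose and none fell. MYL12A, a non-muscle relative of MYL9, rose by 1.13 ± 0.20, and MYH10, a non-muscle myosin heavy chain, by 0.40 ± 0.13. The smooth muscle differentiation markers had 2 falls among 14. ITGA8, the alpha 8 integrin, fell by 0.99 on the log2 scale (SE 0.20), and SMTN, the cytoskeletal protein smoothelin, fell by 0.50 (SE 0.15).

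Among SRF, its cofactors and their antagonists, 3 of 12 rose and 1 fell. CSRP2, a LIM protein, rose by 1.06 ± 0.21. MRTFA, a myocardin-related cofactor of SRF (MKL1 in the annotation), rose by 0.52 ± 0.11, and GATA6 by 0.49 ± 0.12. KLF4, which represses smooth muscle genes, had a change of -0.77 ± 0.14 with doxycycline at 72 h and of 0.64 ± 0.14 in mock cells at 72 h against 24 h. These 2 KLF4 changes share the mock 72 h arrays, so they are not separate observations. MYOCD, myocardin itself, changed by 0.26 ± 0.15 with doxycycline (adjusted p = 0.35). Of the SRF and MRTF targets, 1 of 16 rose and 1 fell at 72 h. CCN2 (CTGF in the annotation), a secreted matricellular protein, rose by 1.07 ± 0.17, and PDLIM7 had a change of -0.73 ± 0.20. ANKRD1 had a change of -1.35 ± 0.22 with doxycycline at 24 h and of -1.88 ± 0.22 in mock cells over time. Both are taken from the same mock 24 h arrays, so they are not separate observations. In the TGF-beta pathway, whose ligands drive myofibroblast formation, 2 of 16 rose and none fell: TGFBR1, a receptor kinase, by 0.83 ± 0.12, and SMAD7, an inhibitor of the pathway, by 0.64 ± 0.17. Of these 16 genes, 14 had changes above 0, with a median of 0.27 against -0.01 over all genes, and for 7 the doxycycline arrays all lay above the mock arrays, as for 12.2% of all genes.

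The myofibroblast matrix and surface genes split at 72 h, with 6 of 24 up and 4 down, against 4.03% and 4.59% of all genes. ITGA11, a collagen-binding integrin subunit, rose by 1.13 ± 0.15, and LOX, the collagen cross-linking enzyme, by 0.79 ± 0.16. TNC, the matrix protein tenascin C, had a change of -1.07 ± 0.14, and VCAN, the proteoglycan versican, of -0.65 ± 0.11. Over time in mock cells 7 of these 24 rose and 1 fell, against 1.16% and 0.692% of all genes. COL3A1, a fibrillar collagen gene, changed by 1.32 ± 0.14 in mock cells at 72 h against 24 h and by -0.65 ± 0.14 with doxycycline at 72 h. The COL3A1 changes likewise share the mock 72 h arrays and are not separate observations. Of the 18 skeletal and cardiac muscle markers tested, none was called at 72 h. In HEK293 cells limma called no gene of these lists with doxycycline at either time. At an unadjusted p under 0.05 the myofibroblast matrix and surface list had 8 and 7 of 24 genes at 24 h and 72 h, and each of the other lists had 0 to 4, against 8.56% and 11.6% of all genes.

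Proliferation genes moved with the treatment in the same arrays. In BJ-hTERT cells, 12 of 12 fell with doxycycline at 24 h and 11 of 12 at 72 h, against 4.39% and 4.59% of all genes, with median changes of -1.19 and -0.88. AURKB, a mitotic kinase, changed by -1.40 ± 0.12 at 24 h and -1.18 ± 0.12 at 72 h. Over time in mock cells 6 of 12 fell, against 0.692% of all genes, with a median of -0.43. The mock 24 h arrays also enter the 24 h doxycycline comparison. The average over the 12 genes ran from 7.48 to 7.60 in doxycycline arrays at 72 h, against 8.34 to 8.45 in mock arrays. Of the fibroblast markers, 1 of 10 rose and 3 fell with doxycycline at 72 h. Over time in mock cells, a comparison that shares the mock 72 h arrays, 5 of 10 rose and none fell. The median change of these markers over time was 0.67 (1.16% of all genes rose). Their average ran from 8.26 to 8.41 in doxycycline arrays at 72 h, against 8.48 to 8.59 in mock arrays. The part of either in the changes of MYLK, ACTA2 and LMOD1 was not tested.

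**Figure D4:**
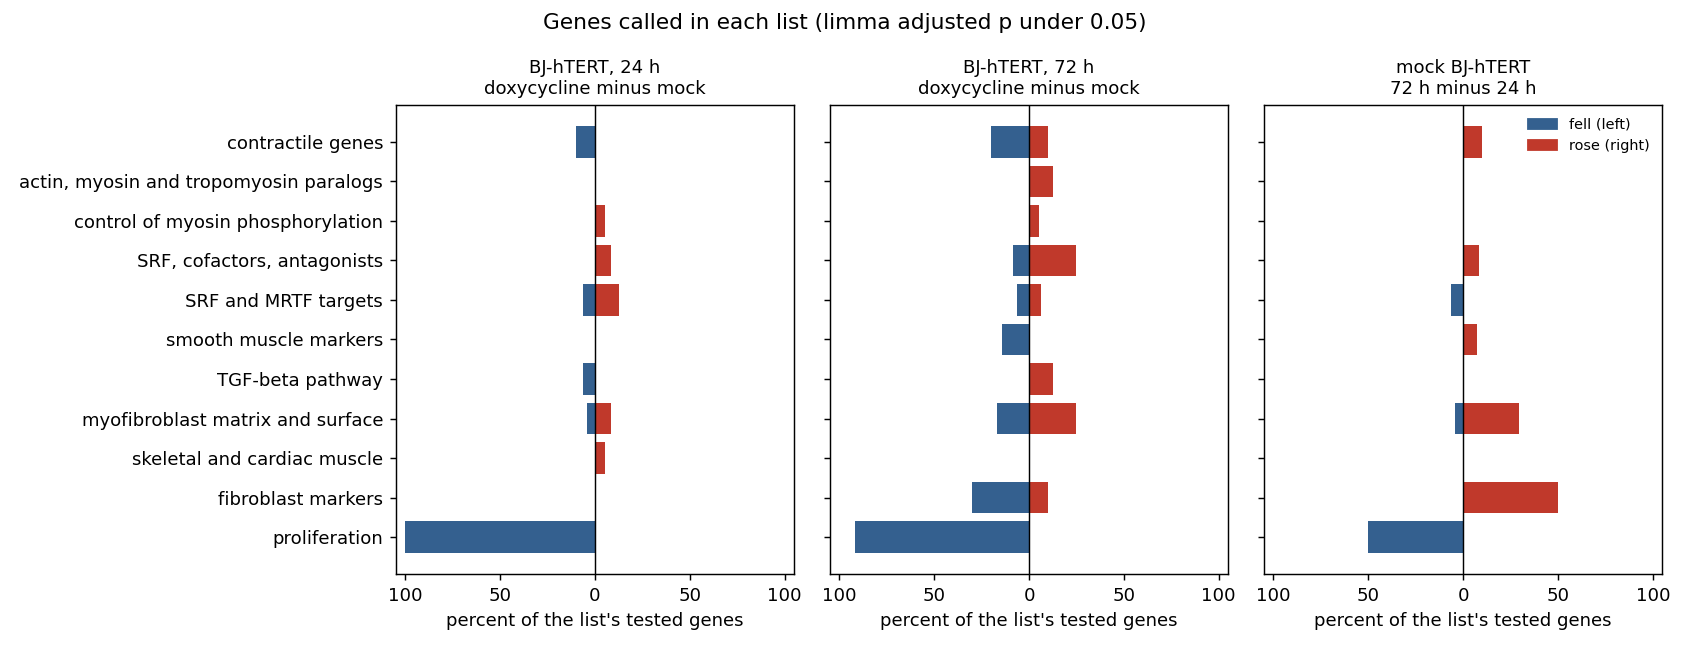
Percent of the tested genes of each list (rows) that fell (left of 0) or rose (right of 0) with a limma adjusted p under 0.05, with doxycycline in BJ-hTERT cells at 24 h and 72 h and over time in mock BJ-hTERT cells. Proliferation genes fell (12, 11 and 6 of 12), whereas the contractile genes had 1 fall, then 2 falls and 1 rise, then 1 rise among 10.

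The genes whose log2 values ran most like MYLK over the 12 BJ-hTERT arrays, by Pearson's r among 13376 genes, were TOX (0.969), THOC6 (0.964), EXT1 (0.962), OXTR (0.961) and CTSC (0.961). For ACTA2 they were CREB3L1 (0.915), SEMA7A (0.909), COX20 (0.904), NRP2 (0.902) and USP5 (0.897). These values describe 4 groups of 3 arrays that share the treatment and the time, and the highest of many correlations are high by selection.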

How the data were processed

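RNA from 24 samples was measured on Human Gene 2.1 ST microarrays (Affymetrix). The deposited table holds log2 values for 352859 probe sets. Per the submitters' processing notes, GCOS, RMA and Affymetrix Expression Console were used, with no version given, while oligo and limma are named in the design text. The genome build is not given in the sources used here. Titles of the HEK293 doxycycline 24 h arrays transpose 2 digits of the line's name, which was read as a typing error.

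A gene's value is the mean of its probe sets that carry 1 symbol (257971 probe sets, 25029 genes). Genes were tested if at least 1 group mean was at or above the 40th percentile of all group means (2.83), in R 4.3.3 with limma 3.58.1 (lmFit and eBayes on all 24 arrays, 8 group means, Benjamini-Hochberg). Single probe sets used the same rule (3.03). The gene and probe set fits recovered changes in simulated data with few false calls. The test planned for unequal probe set changes, diffSplice, made many false calls there. A weighted form did not mend this; Welch's heterogeneity test on limma's moderated changes, the heterogeneity test of the report, made few. Both were added after the results of the planned test were known. Sequences are from RefSeq, GRCh38.p14. Named are all members, and of each list the 4 genes with the smallest p at 72 h in BJ-hTERT cells and the 2 over time in mock cells; not every one is printed, and a result in the list on control of myosin phosphorylation is not reported here. The members, the lists and the tests were chosen with earlier results of these data known. The alternatives are those in the closing section.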

Additional observations from a re-analysis of the deposited data

Results flagged for a closer look

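The effect of doxycycline on MYLK at 72 h differed between the lines by an interaction term. BJ-hTERT minus HEK293 was -1.36 ± 0.22 log2 units (SE), with an adjusted p of 0.00096, from effects of -1.13 in BJ-hTERT and 0.23 in HEK293 cells. MYLK averaged 3.30 in mock HEK293 cells at 72 h, near the filter value of 2.83. For LMOD1 the difference was 1.13 ± 0.27, with an adjusted p of 0.014, from effects of 0.62 in BJ-hTERT and -0.51 in HEK293 cells. The HEK293 effect was not called on its own (adjusted p = 0.27), and its means of 3.05 in doxycycline and 3.56 in mock cells also lay near the filter value. Both differences passed the test in all 23 alternative fits of each.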

How the results depend on the processing

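No result changed direction. With doxycycline in BJ-hTERT cells at 24 h, 1 member was called: the median of probe sets gave 0 (MYLK lost the call with a change of -0.81), and the stricter filter (60th percentile), the replicate block and the largest block of probe set IDs (added after seeing the data) gave 2, LMOD1 being the second. Leaving out an array gave 1 to 2. At 72 h, 3 were called: the fit on the groups alone gave 1, and leaving out an array gave 1 to 3. LMOD1 also lost the call with no filter, trend and robust eBayes, array weights or the line alone. The stricter filter added ACTG2, and brighter probe sets called ACTG2 in place of LMOD1. For mock BJ-hTERT over time, 1 was called: 0 with the median, the groups alone or the line alone, 2 with brighter probe sets, and 0 to 1 with an array left out. For the line difference at 24 h, 0 were called: 1 (MYLK) with brighter probe sets, the stricter filter, trend and robust eBayes or array weights, and 0 to 1 with an array left out. For the line difference at 72 h, 2 were called, also with an array left out. Brighter probe sets added ACTA2 (-1.19, limma adjusted p = 0.037), and the median of probe sets added CALD1 (1.10, limma adjusted p = 0.033). Probe sets called at 72 h in BJ-hTERT were 0, with 1 under the stricter filter and 0 to 1 with an array left out; in HEK293 cells leaving out an array gave 0 to 2 at 24 h and 0 to 1 at 72 h. Unequal probe set changes at 72 h were called for 0 members by diffSplice and by the heterogeneity test, and for 1 (ACTA2) without a filter and with inverse-variance weights.

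Replicate numbers did not pair the samples: deviations of same-numbered arrays correlated at -0.052 to 0.086, although at 72 h in BJ-hTERT 3 of 3 correlated best with their own number. The replicate block moved no other count by over 1.5 times. The number of arrays, 3 per group, limits the precision, and the values carry no detection call, so small differences near the filter value cannot be read. The cause of these shifts was not tested.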
